A study of Homo sapiens with 9 samples.

Results

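The 8 genes described here encode J proteins of the endoplasmic reticulum (ER), taken from the known family by name: DNAJB9, DNAJB11, DNAJC3, DNAJC10, SEC63, DNAJC1, DNAJC16 and DNAJB12. Every probe set whose annotation names 1 of these genes and no other was taken, which gave 28 of the 54613 probe sets and 8 of the 19775 genes on the array. HEK293 cells, an established human line derived from embryonic kidney, were transiently transfected with the L188Q form of surfactant protein C (LQ), with a form of that protein lacking exon 4 (Ex4) or with the wild-type protein (WT), and each group had 3 arrays. All 3 groups thus carried transfected surfactant protein C, a lung protein made as a membrane-anchored proprotein in alveolar type II cells, and WT cells were the control. Transient transfection leaves some cells without the construct, and their share was not given in the labels. RNA came from the whole culture, so that more RNA per cell and more responding cells cannot be told apart. The labels do not say that the 3 arrays of a group came from separate cultures, and the p-values below therefore speak only to the spread from array to array, which could be technical.

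A J protein carries a J domain that binds an HSP70 chaperone and stimulates its ATPase, which locks the HSP70 onto its client. In the ER lumen that HSP70 is BiP, encoded by HSPA5. The luminal members hand clients to BiP for folding or for ER-associated degradation, in which misfolded proteins are returned to the cytosol for the proteasome. DNAJB9 (ERdj4) assists degradation and holds BiP on the stress sensor IRE1, DNAJC10 (ERdj5) reduces disulfide bonds of proteins to be degraded, DNAJC3 (ERdj6, P58IPK) binds unfolded proteins through its TPR repeats, and DNAJB11 (ERdj3) binds many nascent and unfolded proteins with SDF2L1. DNAJB9 and DNAJC10 are known to bind misfolded surfactant protein C. The other 4 members are membrane proteins: SEC63 brings BiP to the SEC61 translocon, DNAJC1 (ERdj1) binds ribosomes at the membrane, DNAJC16 (ERdj8) has a thioredoxin-like region, and DNAJB12 turns its J domain to the cytosol and works with cytosolic HSC70.

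Values are linear MAS5 intensities, and levels are not compared between probe sets because each has its own brightness. Array medians were 303.9 to 371.8 on LQ arrays, 316.1 to 434.3 on Ex4 arrays and 506.4 to 524.4 on WT arrays, while trimmed means lay between 1493.3 and 1494.9 on all 9 arrays. The median log2 change over the 32768 tested probe sets was -0.15 for LQ against WT and -0.12 for Ex4 against WT. Centring every array on its median over all probe sets moved these medians to 0.44 and 0.37, and quantile normalization moved them to 0.04 and 0.02. The transfected gene SFTPC, on its brightest probe set, read 132058, 108963 and 124170.0 in LQ cells, 134379, 97629.7 and 169241 in Ex4 cells and 173159.7, 261955 and 190959.7 in WT cells, with each mutant array below each WT array. Its difference from WT was -0.76 log2 in LQ (limma, adjusted p = 0.051) and -0.65 in Ex4 (limma, adjusted p = 0.11). Another SFTPC probe set passed in both mutants, at -0.73 in LQ and -3.11 in Ex4 (limma, adjusted p = 0.033 and 8.9e-06). A further one passed in Ex4, at -10.49, but not in LQ, at -0.71 (limma, adjusted p = 0.00037 and 0.59). It read 914, 39.1 and 28.7 in Ex4 cells and 158962, 239964 and 178182 in WT cells. On the remaining SFTPC probe sets the differences were also negative, neither mutant passed in limma, and Ex4 arrays overlapped the WT arrays. The 2 probe sets that passed in Ex4 were also the 2 called between LQ and Ex4 (limma, adjusted p = 0.0002 and 0.00082). The Ex4 form lacks exon 4, and which exons each SFTPC probe set reads was not analysed. A fall on single probe sets in Ex4 is therefore not a measure of the level of the whole transcript. RNA integrity was read from the control probe sets at each end of a transcript, whose 3' over 5' intensity was 1.07 ± 0.016 in LQ, 1.12 ± 0.14 in Ex4 and 1.31 ± 0.11 in WT for GAPDH (SD, n = 3 each), and 1.18 ± 0.041 in LQ, 1.35 ± 0.18 in Ex4 and 1.13 ± 0.12 in WT for ACTB. All 7 HEK293 markers (VIM, KRT8, KRT18, NEFL, NEFM, CDH2 and PAX2) read above the array median on every array of each group. Their sums were 149412 to 161373 on LQ arrays, 142778 to 152944 on Ex4 arrays and 151954 to 193272 on WT arrays, and 1 of the 7 was called in LQ against WT (limma). VIM alone read 75723.6 to 109975.5, and the sums show little of the dimmer genes. PAX2 read 407.8 to 535.5 on LQ, 385.1 to 1149.5 on Ex4 and 1533.2 to 2800.6 on WT arrays, with each mutant array below each WT array. LQ and WT arrays overlapped on each of the other HEK293 markers. Of the markers of other cells, those of alveolar type II cells summed to 4515 to 5293 on LQ, 3918 to 4414 on Ex4 and 4360 to 7115 on WT arrays (7 of 9 genes measured). Those of fibroblasts summed to 3216 to 4447 on LQ, 4707 to 5882 on Ex4 and 6657 to 8077 on WT arrays (6 genes), and those of blood cells to 1331 to 1633 on LQ, 1608 to 1761 on Ex4 and 2415 to 3154 on WT arrays (6 of 7 genes). In LQ against WT 1 of 2 tested fibroblast markers, 0 of 6 alveolar and 0 of 3 blood markers were called (limma). Of all genes, 7.32% were called there in either direction. The part of the transfected gene's level, the array medians, the RNA ratios and these markers in the changes below was not tested.

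The comparison of LQ with WT asked how the members differed in cells making the L188Q protein. In LQ cells 2 of 3 probe sets of DNAJB9, 2 of 4 of DNAJC3 and 1 of 5 of DNAJC10 rose, by 1.67-fold to 3.14-fold, and no probe set of SEC63, DNAJC1, DNAJC16 or DNAJB12 passed the test. Of the 27 member probe sets bright enough to test, 5 were called higher and 0 lower (limma, adjusted p under 0.05), which is 18.5% called higher, against 3.09% of all tested probe sets (6.81% were called in either direction). All 5 belonged to luminal members, which had 13 tested probe sets, and 0 of the 14 of the membrane members were called in limma (2 at an unadjusted p under 0.05, which 28.9% of all tested probe sets reached). Membrane members were called under other settings, which also called more of all tested probe sets. Centring arrays on their medians over tested probe sets called SEC63 201914_s_at and DNAJC1 222621_at (limma, adjusted p = 0.024 and 0.038) and 11.9% of all tested probe sets. Centring over all probe sets called both (0.0041 and 0.0098), SEC63 201916_s_at (0.043) and 25.8% of all. SEC63 201914_s_at was also called without WT replicate 1 (0.047), with 15.2% of all, and with array weights (0.018), with 26.2% of all. All LQ arrays lay above all WT arrays on 12 of the 27, against 13.1% of all tested probe sets, and below them on 2, against 24.2%. The median log2 change was 0.84 over the luminal probe sets and -0.02 over those of the membrane members, beside -0.15 over every tested probe set. On the brightest probe set of each gene, 2 of 8 genes were called, against 7.32% of all genes in either direction.

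DNAJB9 showed the clearest rise among the brightest probe sets. Its brightest probe set, 202842_s_at, read 5999, 6832 and 7367 in LQ cells, 4506, 7821 and 7366 in Ex4 cells and 3460.1, 2843 and 3717 in WT cells. The LQ arrays and the Ex4 arrays all lay above the WT arrays, and Ex4 replicate 1 was the lowest of the mutant arrays. LQ exceeded WT by 1.01 ± 0.22 on the log2 scale (SE), a 2.02-fold difference (limma, adjusted p = 0.030). The probe set 202843_at read 1826, 2114 and 2029 in LQ cells, 1354, 2460.2 and 2402 in Ex4 cells and 1136, 1039 and 978 in WT cells. It also had every LQ array above every WT array, with a difference of 0.91 ± 0.25 (limma, adjusted p = 0.049). The third, 1554462_a_at, differed by 0.75 ± 0.26 without passing the test (limma, adjusted p = 0.085), although its LQ readings of 3702 to 4446 lay above its WT readings of 1897 to 2785. Set against the brightest probe set, the mutant change was -0.26 on 1554462_a_at and -0.06 on 202843_at, neither past the test (exact permutation p = 0.17 and 0.60 over 84 splits, adjusted p = 0.40 and 0.68).

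DNAJC3 had positive differences on all 4 of its probe sets, of which 2 passed. The brightest, 225284_at, read 3474, 4227 and 4534 in LQ cells, 3368, 5122 and 4137 in Ex4 cells and 2727, 2415 and 2166 in WT cells. All 3 LQ arrays lay above the WT arrays, and LQ exceeded WT by 0.74 ± 0.20 log2, or 1.67-fold (limma, adjusted p = 0.049). The dim probe set 208499_s_at read 1143, 1426 and 1234 in LQ cells, 692, 742 and 548 in Ex4 cells and 475, 411 and 418 in WT cells. Its groups fell into 3 separate ranges with LQ on top and WT lowest, and all 3 WT readings were below their array medians. LQ exceeded WT there by 1.51 ± 0.27, or 2.84-fold (limma, adjusted p = 0.020). On 1558080_s_at the difference was 0.92 ± 0.28 (limma, adjusted p = 0.065), with LQ arrays at 1703 to 2207 and WT arrays at 874 to 1172. On 235341_at it was 0.32 ± 0.25 (limma, adjusted p = 0.41) and the groups overlapped. An ending in _s_at marks a probe set that the array's design matches to more than 1 transcript, so the probe sets of a gene need not read the same transcripts.

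DNAJC10 gave opposite readings on different probe sets. Its brightest, 225174_at, read 8586, 9503 and 8989 in LQ cells, 7233, 10181 and 11807 in Ex4 cells and 7783, 3744 and 4395 in WT cells. Every LQ array lay above every WT array, while WT replicate 1 stood apart from the other WT arrays and above Ex4 replicate 1. The LQ difference of 0.84 ± 0.26 did not pass (limma, adjusted p = 0.066). The probe set 221781_s_at read 4784, 3648 and 4052 in LQ cells, 2194, 3641 and 3956 in Ex4 cells and 1962, 866 and 1304 in WT cells. Here all LQ and all Ex4 arrays lay above the WT arrays, and LQ exceeded WT by 1.65 ± 0.30, or 3.14-fold (limma, adjusted p = 0.022). The probe set 221782_at had a difference of 0.86 ± 0.27 (limma, adjusted p = 0.067). In contrast, 243635_at read 224, 284 and 205 in LQ cells, 379.7, 204 and 210.4 in Ex4 cells and 580.5, 499 and 891 in WT cells. Every mutant array lay below every WT array there, with a difference of -1.38 ± 0.42 in LQ (limma, adjusted p = 0.065), and the LQ and Ex4 readings were all below their array medians. The fifth, 229588_at, read 736, 808 and 551 in LQ cells, 1001, 1066 and 910.0 in Ex4 cells and 1452, 612 and 791 in WT cells, and its groups overlapped.

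DNAJB11 is represented by a single probe set, 223054_at, which read 14034, 13832 and 13205 in LQ cells, 14220.2, 15536 and 10007 in Ex4 cells and 11369, 8810.5 and 11579 in WT cells. The LQ arrays lay above the WT arrays and close together, and the Ex4 arrays overlapped them. The difference between LQ and WT was 0.38 ± 0.18, with a 95% interval of -0.02 to 0.78, and did not pass (limma, adjusted p = 0.19). It passed with arrays centred on their medians over tested probe sets, at 0.63, and over all probe sets, at 0.96 (limma, adjusted p = 0.048 and 0.0092).

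**Figure D1:**
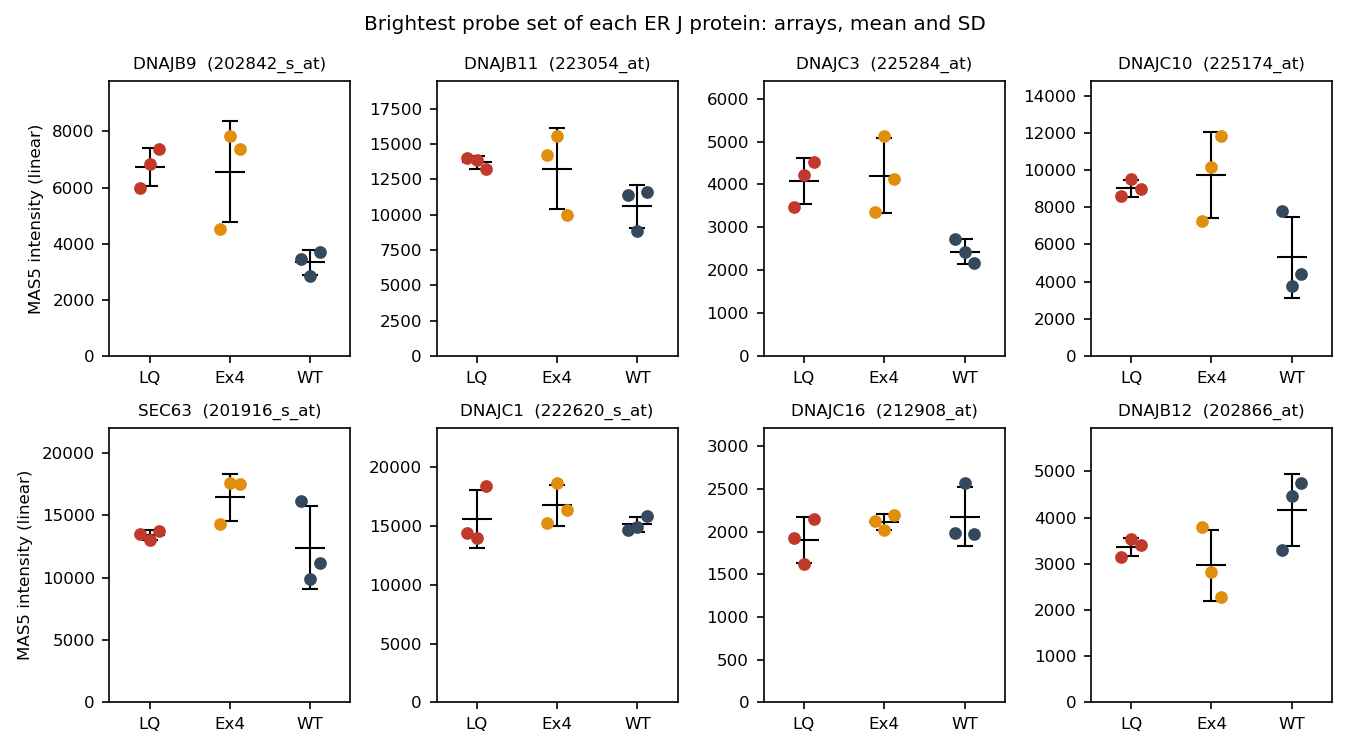
MAS5 intensity (linear axis from 0) of the brightest probe set of each member, with 1 point per array for LQ, Ex4 and WT cells and bars for the mean and SD (n = 3). For DNAJB9 and DNAJC3 all 6 mutant arrays lie above the 3 WT arrays, and for DNAJC1, DNAJC16 and DNAJB12 the groups overlap.

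Since ER stress factors are known to act through promoter elements, the 250 bases before the start of the 4 luminal genes are shown from RefSeq (GRCh38.p14), 5′ to 3′ on the strand of the gene. Capitals mark CCACG or, on the other strand, CGTGG, the part shared by the elements through which ATF6 and XBP1 are known to act on ER chaperone genes.
DNAJB9, chr7:108569624-108569873, plus strand: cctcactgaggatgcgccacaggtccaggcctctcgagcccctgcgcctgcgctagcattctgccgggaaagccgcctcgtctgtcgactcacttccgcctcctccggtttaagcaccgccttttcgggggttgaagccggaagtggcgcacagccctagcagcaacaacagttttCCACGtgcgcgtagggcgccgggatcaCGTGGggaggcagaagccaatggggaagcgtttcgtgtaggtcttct
DNAJC3, chr13:95676889-95677138, plus strand: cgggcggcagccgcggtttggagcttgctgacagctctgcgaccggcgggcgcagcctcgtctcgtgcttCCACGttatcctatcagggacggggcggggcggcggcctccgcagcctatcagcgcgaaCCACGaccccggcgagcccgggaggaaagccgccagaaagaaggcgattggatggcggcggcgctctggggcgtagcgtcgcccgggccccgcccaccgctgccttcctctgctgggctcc
DNAJC10, chr2:182716007-182716256, plus strand: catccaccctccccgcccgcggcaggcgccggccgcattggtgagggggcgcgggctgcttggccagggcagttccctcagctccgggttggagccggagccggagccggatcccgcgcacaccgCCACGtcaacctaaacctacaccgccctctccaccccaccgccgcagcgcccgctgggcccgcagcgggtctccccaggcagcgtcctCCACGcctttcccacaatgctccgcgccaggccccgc
DNAJB11, chr3:186570470-186570719, plus strand: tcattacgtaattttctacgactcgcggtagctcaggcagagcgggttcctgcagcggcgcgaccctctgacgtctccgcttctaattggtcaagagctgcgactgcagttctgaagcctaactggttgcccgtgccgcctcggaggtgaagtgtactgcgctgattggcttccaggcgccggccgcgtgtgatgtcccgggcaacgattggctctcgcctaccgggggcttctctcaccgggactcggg
DNAJB9 holds the shared letters at positions -74 and -47 from the start, DNAJC3 at -180 and -121, and DNAJC10 at -125 and -37, while DNAJB11 holds none in this window. Of the 7 members listed in the RefSeq table, 5 hold them on either strand (DNAJB9, DNAJC3, DNAJC10, SEC63 and DNAJC16), as do 33.5% of 35116 promoter windows of this length. G and C made up 57.6% (DNAJC16) to 74.8% (DNAJC10) of these 5 windows. The windows of DNAJB11 and DNAJB12 had 61.6% and 62.4%, and the median over all windows was 58.0%. The part of base content in this count was not tested. The full ER stress response element, CCAAT and CCACG with 9 bases between them, was in 0 of the 7 windows and in 0.0740% of all of them, with HSPA5 and HSP90B1 among those that hold it. The related ERSE-II, ATTGG and CCACG with 1 base between them, was also in 0 of the 7 and in 0.0513% of all windows, and was found for HERPUD1, SDF2L1 and HYOU1. The unfolded protein response element TGACGTGG was in the DNAJC10 window, as CCACGTCA overlapping the shared letters at -125, and in 0.612% of all windows. DNAJC1 was not matched in the table. A match is a stretch of letters and not a measured binding site.

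Among the membrane members, no probe set passed in LQ cells with the arrays as scaled by MAS5. SEC63 read 13499.6, 13005 and 13733 in LQ cells, 14272, 17602 and 17488 in Ex4 cells and 16181, 9919.6 and 11159 in WT cells on 201916_s_at. WT replicate 1 lay above the LQ arrays and the other WT arrays below them, and the difference of 0.14 ± 0.18 (limma, adjusted p = 0.63) turned negative with quantile normalization. The remaining 4 probe sets of SEC63 differed from WT by -0.23 to 0.44, and on 201914_s_at the LQ arrays, at 7640 to 8121, lay above the WT arrays, at 5250 to 6814 (limma, adjusted p = 0.12). DNAJC1 read 14402, 13956 and 18431 in LQ cells, 15238, 18669 and 16354 in Ex4 cells and 14679, 14928 and 15873 in WT cells on 222620_s_at, a difference of 0.03 ± 0.15 (limma, adjusted p = 0.91) that also turned negative with quantile normalization. Its other probe sets pointed opposite ways, with 222621_at at 0.54 ± 0.20 (limma, adjusted p = 0.10) and 218409_s_at at -0.31 ± 0.19 (limma, adjusted p = 0.28). Neither passed the test, although LQ and WT arrays did not overlap on either one.

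DNAJC16 and DNAJB12 had negative differences on their brightest probe sets, none past the threshold. DNAJC16 read 1924, 1617 and 2155 in LQ cells, 2130.4, 2016 and 2198 in Ex4 cells and 1988, 2573 and 1973 in WT cells on 212908_at, a difference of -0.20 ± 0.20 (limma, adjusted p = 0.54), which was positive when arrays were centred on their medians. Its other tested probe set, 212911_at, differed by -0.03, and the third, 217358_at, averaged below the brightness filter, with readings of 43.2 to 190 in LQ, 30.3 to 482 in Ex4 and 155 to 328 in WT cells. DNAJB12 read 3139, 3530.3 and 3401 in LQ cells, 3788, 2826 and 2276 in Ex4 cells and 3289.8, 4468 and 4749.5 in WT cells on 202866_at. Its LQ arrays lay within the WT range or below it, the difference was -0.30 ± 0.22 (limma, adjusted p = 0.39), and it became positive when arrays were centred on their medians over all probe sets. The other probe sets of DNAJB12 differed by -0.18 ± 0.23 on 202867_s_at, -0.22 ± 0.26 on 202865_at and, in the other direction, 0.33 ± 0.50 on 214338_at (limma, adjusted p = 0.62, 0.60 and 0.69).

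**Figure D2:**
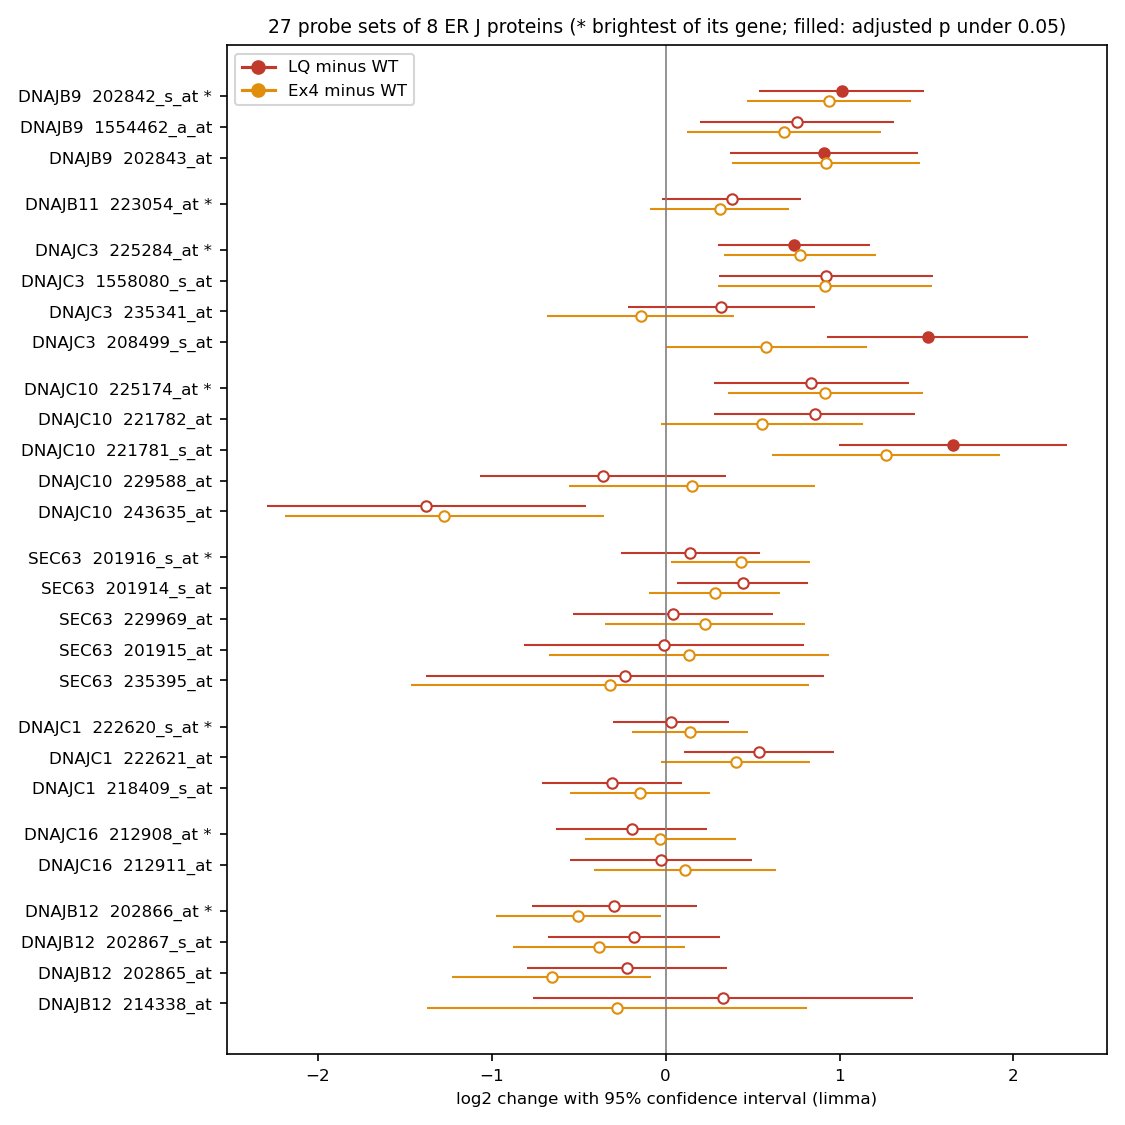
Log2 change with its 95% confidence interval (limma) for each of the 27 tested member probe sets, LQ against WT and Ex4 against WT, with filled points past an adjusted p of 0.05. The 5 filled points belong to DNAJB9, DNAJC3 and DNAJC10 in LQ, and no Ex4 point is filled.

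No call in LQ cells was kept when certain single arrays were left out. Leaving out any one of LQ replicates 1, 2 and 3, or WT replicate 2 or WT replicate 3, left 0 member probe sets called (limma). These fits called 0.024% to 0.140% of all tested probe sets. For DNAJB9 202842_s_at the change stayed between 0.90 and 1.09 in those fits, with adjusted p of 0.078 to 0.12. Without WT replicate 1, 8 member probe sets were called, against 15.2% of all tested probe sets. Among the 8 was DNAJC10 225174_at with a change of 1.15 (limma, adjusted p = 0.0058). Without Ex4 replicate 1, which enters this comparison only through the shared spread, 9 were called, against 13.4% of all tested probe sets. Without Ex4 replicate 2, 4 were called (6.39% of all), and without Ex4 replicate 3, 3 were called (5.54% of all). The log2 changes of the 5 called probe sets were positive under each scaling tried.

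Ex4 cells were compared with WT to see how the members differed with the exon deletion. The brightest probe sets of DNAJB9, DNAJC3 and DNAJC10 had positive differences, but no member passed the test. Of the 27 member probe sets, 0 were called in limma (11 at an unadjusted p under 0.05), against 0.0122% of all tested probe sets called and 24.9% at an unadjusted p under 0.05. The median log2 change was 0.68 over the luminal probe sets and 0.04 over those of the membrane members, beside -0.12 over every tested probe set. DNAJB9 202842_s_at had a difference of 0.94 ± 0.22, or 1.92-fold (limma, adjusted p = 0.077). DNAJC3 225284_at had a difference of 0.77 ± 0.20 (limma, adjusted p = 0.081), and its other probe sets had differences of 0.92 ± 0.28 on 1558080_s_at, 0.58 ± 0.27 on 208499_s_at and -0.14 ± 0.25 on 235341_at (limma, adjusted p = 0.10, 0.20 and 0.75). DNAJC10 differed by 0.92 ± 0.26 on 225174_at (limma, adjusted p = 0.088) and by 1.27 ± 0.30 on 221781_s_at (limma, adjusted p = 0.077). All Ex4 arrays lay above all WT arrays on 7 of the 27 member probe sets, against 7.48% of all tested probe sets, and on 2 all lay below, against 15%. Those below were DNAJC10 243635_at, with a difference of -1.27 ± 0.42 (limma, adjusted p = 0.11), and DNAJB12 202865_at, with -0.66 ± 0.26 (limma, adjusted p = 0.16).

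Single arrays also decided whether members were called in Ex4 cells. On DNAJB9 202842_s_at the SD was 689 among LQ arrays, 1797 among Ex4 arrays and 449 among WT arrays, and replicate 1 gave the low Ex4 reading. Without Ex4 replicate 1, 9 member probe sets were called in Ex4 cells (limma), with 13.5% of all tested probe sets called. These were all 3 of DNAJB9, with changes of 0.92 to 1.20, then 225284_at and 1558080_s_at of DNAJC3, 225174_at, 221781_s_at and 243635_at of DNAJC10, and 202866_at of DNAJB12, which was -0.70 (limma, adjusted p = 0.0496). Without WT replicate 1, 7 were called, against 11.2% of all tested probe sets. SEC63 201916_s_at was among the 7, at 0.64 (limma, adjusted p = 0.021). Leaving out any other array gave 0. Array weights, which let the fit give less weight to arrays that deviate, gave 10, against 16.1% of all tested probe sets.

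The mutants were then compared directly. No member passed the test between them: 0 of the 27 probe sets were called in limma (1 at an unadjusted p under 0.05), against 0.0061% of all tested probe sets called and 4.1% at an unadjusted p under 0.05. On the brightest probe sets the difference, LQ minus Ex4, was 0.07 for DNAJB9 with a 95% interval of -0.40 to 0.55, -0.03 for DNAJC3 (-0.47 to 0.40), -0.08 for DNAJC10 (-0.64 to 0.48) and 0.07 for DNAJB11 (-0.33 to 0.47). For the membrane members it was -0.29 for SEC63 (-0.69 to 0.11), -0.11 for DNAJC1 (-0.44 to 0.22), -0.16 for DNAJC16 (-0.60 to 0.27) and 0.21 for DNAJB12 (-0.27 to 0.68). The intervals do not show that the mutants act alike, and that of DNAJC10 reaches -0.64. DNAJC3 208499_s_at was the probe set with the unadjusted p under 0.05, at 0.93 ± 0.27 higher in LQ than in Ex4 (limma, adjusted p = 1.0).

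When both mutants were set against WT, the comparison with the most arrays, 7 member probe sets were called higher and 1 lower, or 29.6% called, against 11.7% of all tested probe sets, of which 4.89% were called higher and 6.77% lower. This comparison shares its arrays with those above and adds no independent samples. DNAJB9 was 0.98 ± 0.19 and 0.92 ± 0.22 higher on 202842_s_at and 202843_at (limma, adjusted p = 0.021 and 0.028). DNAJC3 was higher on 3 of 4 probe sets, by 0.75 ± 0.17, 0.92 ± 0.25 and 1.04 ± 0.23 (limma, adjusted p = 0.027, 0.037 and 0.025). DNAJC10 rose on 225174_at by 0.88 ± 0.22 and on 221781_s_at by 1.46 ± 0.26, and fell by 1.33 ± 0.37 on 243635_at (limma, adjusted p = 0.034, 0.018 and 0.041). The fall on 243635_at stayed negative but was not called under any other scaling. Its adjusted p was 0.14 with quantile normalization and 0.053 and 0.11 centred over tested and over all probe sets (limma). Without a filter 0 member probe sets were called lower in limma. The rise on 225174_at also missed with quantile normalization (limma, adjusted p = 0.064). All 8 called probe sets belonged to luminal members, and 0 of 14 of the membrane members passed in limma (2 at an unadjusted p under 0.05, against 32.8% of all tested probe sets). Without WT replicate 2 or WT replicate 3 no member probe set was called (0.076% and 0.104% of all tested probe sets). Without an LQ array 1 to 4 were called (0.943% to 3.62% of all), and 3 without Ex4 replicate 2 or Ex4 replicate 3 (4.01% and 2.71%). Without Ex4 replicate 1, 9 were called (22.1% of all), and without WT replicate 1, 11 were called (19.3%).

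Probe sets of the same gene were set against each other on each array, where a single factor for the whole array nearly cancels. Each was set against the brightest of its gene, and a shift that depends on brightness does not cancel. The median LQ change was -0.34 with no filter, -0.15 as filtered and -0.006 with a filter at percentile 60. On DNAJC10, mean log2 values were 8.47 for 243635_at, 9.75 for 229588_at, 11.34 for 221781_s_at and 12.89 for 225174_at. The part of brightness in the differences below was not tested. For DNAJC10, 243635_at minus 225174_at was -5.16 ± 0.54 log2 units on the 6 mutant arrays and -2.95 ± 0.72 on the 3 WT arrays (SD). This difference of -2.20 and one of -0.98 for 229588_at had every mutant array below every WT array (exact permutation p = 0.012, the smallest that 84 splits can give, adjusted p = 0.11 over 19 relations). On 221781_s_at the difference was 0.58 with the mutant arrays on top (exact permutation p = 0.036, adjusted p = 0.17). Of the 19 relations tested, 0 passed after adjustment by the exact permutation test (4 at an unadjusted p under 0.05). With 84 splits and this many relations a single one cannot pass, whatever its size, unless others are as small. The fourth was 222621_at of DNAJC1 (0.38, exact permutation p = 0.036). Which transcripts of DNAJC10 each probe set reads was not analysed here. Averaging all tested probe sets of a gene gave LQ changes of 0.89 ± 0.21 for DNAJB9 (limma, adjusted p = 0.034), 0.87 ± 0.18 for DNAJC3 (limma, adjusted p = 0.026) and 0.32 ± 0.22 for DNAJC10 (limma, adjusted p = 0.34).

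**Figure D3:**
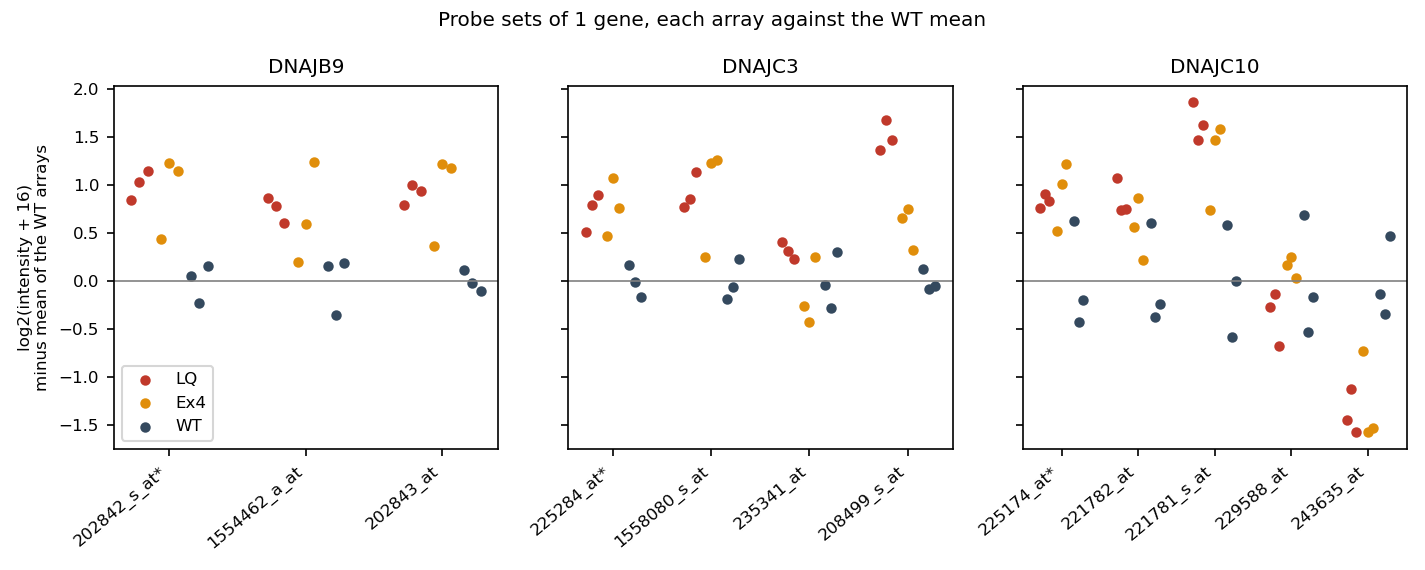
Each array's log2(intensity + 16) minus the mean of the WT arrays, for the probe sets of DNAJB9, DNAJC3 and DNAJC10, with 1 point per array (LQ, Ex4, WT). On each of the 3 probe sets of DNAJB9 all 6 mutant arrays lie above the WT arrays, though the order of arrays within a group differs. DNAJC10 243635_at lies below 0 on all 6 mutant arrays and DNAJC10 221781_s_at lies above 0 on all of them.

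The HSP70s that the luminal members serve were measured on the same arrays, and the partner lists were chosen with earlier results of these data known. HSPA5, which encodes BiP, read 57613, 54507 and 53482 in LQ cells, 47913, 58233 and 62874 in Ex4 cells and 40365, 32956 and 25687 in WT cells on its brightest probe set. Each mutant array lay above each WT array, and LQ exceeded WT by 0.77 ± 0.17 (limma, adjusted p = 0.033), while its other probe set differed by 0.13 (limma, adjusted p = 0.75). Of the 4 ER HSP70s and exchange factors, HSPA5 alone passed in LQ cells, where 7.32% of all genes were called in either direction. The list median was 0.47 in LQ, beside -0.09 over all genes. In Ex4 cells 0 passed in limma, with a median of 0.56.

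Of 14 measured ER partners and clients of the members, 3 rose and 1 fell in LQ cells, against 7.32% of all genes called in either direction. HSP90B1, the ER HSP90, was 1.08 ± 0.22 higher (limma, adjusted p = 0.026), with 26728, 21888 and 24914 in LQ cells, 23094, 21862 and 21592 in Ex4 cells and 17157, 8468 and 10606 in WT cells, but its other probe set differed by -0.19 (limma, adjusted p = 0.69). SDF2L1, the partner of DNAJB11, was 0.94 ± 0.25 higher (limma, adjusted p = 0.048). SEL1L, of the degradation complex, was 0.57 ± 0.16 higher (limma, adjusted p = 0.0495) and is named because the count is small. CALR, the lectin chaperone calreticulin, was lower, at -0.97 ± 0.22 (limma, adjusted p = 0.033), while its other probe sets differed by -0.16 and -0.45 without passing (limma, adjusted p = 0.65 and 0.23). The list median was 0.04 in LQ and -0.05 in Ex4, where 0 of 14 passed in limma.

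Among 9 stress sensors and factors, 2 rose in LQ cells, against 7.32% of all genes called in either direction. These were HERPUD1, an ER membrane protein of the degradation machinery, by 1.26 ± 0.19 (limma, adjusted p = 0.015), and CRELD2, a secreted ER stress protein, by 0.92 ± 0.21 (limma, adjusted p = 0.032). HERPUD1 read 9911, 10027 and 11094 in LQ cells, 6311, 9874 and 9301 in Ex4 cells and 4638, 4634 and 3696 in WT cells, with all mutant arrays above the WT arrays. The list median was 0.19 in LQ and 0.24 in Ex4, where 0 of 9 passed in limma.

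J proteins outside the 8 members gave the comparison within the family. Of 29 measured J proteins of the cytosol, nucleus, mitochondria and vesicles, 2 passed in LQ cells, against 7.32% of all genes called in either direction. Both were higher: HSCB, a mitochondrial iron-sulfur cofactor chaperone, by 0.67 ± 0.16 (limma, adjusted p = 0.037), and DNAJA3, also mitochondrial, by 0.64 ± 0.14 (limma, adjusted p = 0.030). Of 3 measured ER membrane J proteins outside the 8, DNAJC18 was 0.75 ± 0.21 higher on its brightest probe set (limma, adjusted p = 0.049), while its other probe sets differed by -0.05 and -0.50. The median change in LQ was 0.25 over the 29 and 0.26 over the 8 members on their brightest probe sets, beside -0.09 over all genes. In Ex4 cells 0 of the 29 and 0 of the 3 passed in limma.

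**Figure D4:**
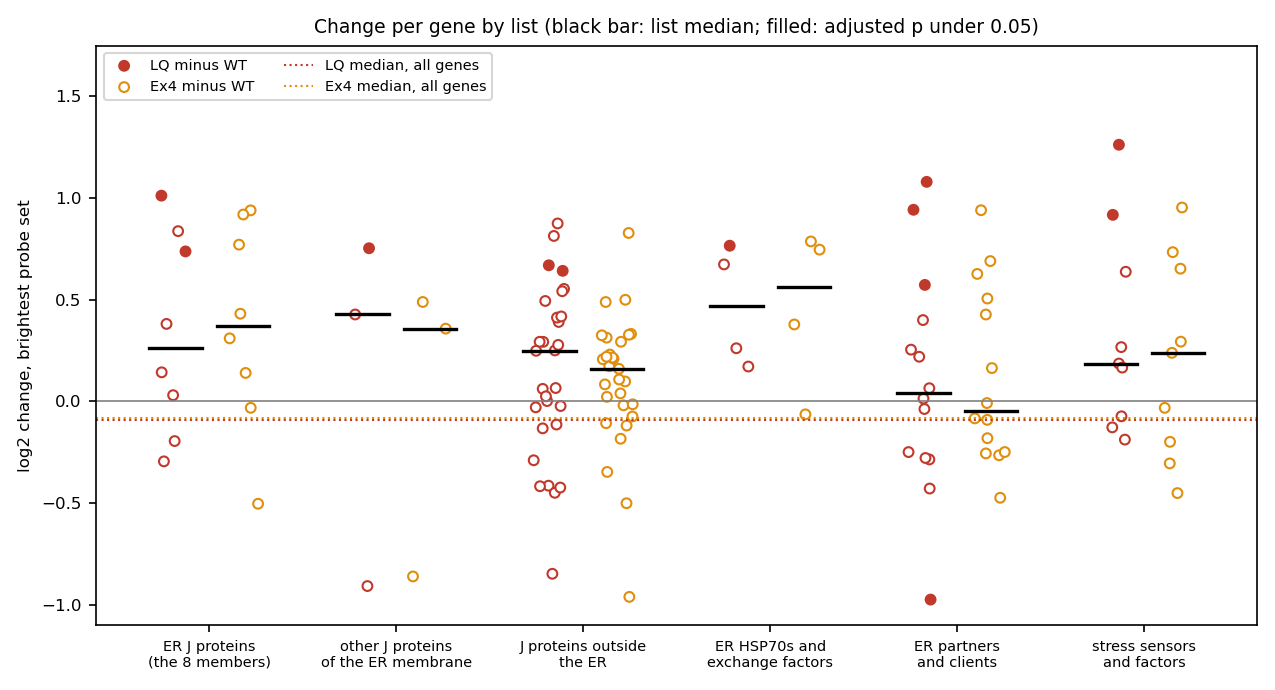
Log2 change of the brightest probe set of each gene, by list, for LQ against WT and Ex4 against WT, with filled points past an adjusted p of 0.05, black bars for list medians and dotted lines for the median of all genes. DNAJB9 and DNAJC3 are the filled points among the 8 members, and every Ex4 point is open.

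The pattern of each member over the 9 arrays was compared with that of 14017 other genes on their brightest probe sets, as a description. DNAJB9 and DNAJC3 correlated at r = 0.934, DNAJB9 and DNAJC10 at 0.869, and DNAJC10 and SEC63 at 0.861. With each array centred on its median these became 0.975, 0.943 and 0.974. Centring raised the correlation of every pair of members, for example of DNAJB9 with DNAJC1 from 0.486 to 0.931 and with DNAJC16 from -0.411 to 0.766. DNAJC10 and DNAJB12 correlated at -0.894 as scaled by MAS5 and at 0.006 after centring, so that their opposite pattern was present in 1 of these scalings. The 9 points share the group differences and the shift of the array medians and are not independent of either. The genes most like DNAJB9 were BAG4 (r = 0.991), MAP2 (0.990) and DDX50 (0.985). Those most like DNAJC3 were LRP11 (0.983), SP3 (0.982) and SNX30 (0.977), and those most like DNAJC10 were FUBP1 (0.993), PDS5A (0.991) and OSBPL8 (0.987). No other luminal member was among the 3 nearest genes of any of them, and DNAJC3 ranked 91 among the genes nearest to DNAJB9. DNAJB11 was closest to PBDC1 (0.950), ZC3H8 (0.950) and FIP1L1 (0.949). Among the membrane members, SEC63 was closest to ZBTB44 (0.981), TMX3 (0.977) and KMT2C (0.971), and DNAJB12 to CRYBG2 (0.975), ZFPM1 (0.971) and NOL12 (0.970). DNAJC1 had TNPO3 (0.918), ZNF555 (0.910) and SEC22A (0.908) nearest, and DNAJC16 had TLX1NB (0.910), LINGO1 (0.886) and CNTNAP1 (0.885). Centring lowered the values of these last genes and of those nearest to DNAJB12, to 0.598 for TLX1NB, 0.660 for LINGO1, 0.825 for CNTNAP1, 0.583 for CRYBG2, 0.827 for ZFPM1 and 0.946 for NOL12. For the nearest genes of the other 6 members it left values of 0.971 to 0.997.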

How the data were processed

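Total RNA of 9 HEK293 samples was hybridised to Affymetrix arrays with 1 colour. The deposited values are linear intensities per probe set, which the authors made with MAS5 (named in the submitters' processing notes, its version not given in the sources used). MAS5 weighs perfect-match against mismatch probes and scales every array, and this scaling was kept. The number of arrays limits the precision. Detection calls were not used.

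Of 54613 probe sets that are not controls, 41091 had 1 gene symbol in the platform annotation, 1801 several and 11721 none, and a RefSeq table gave current symbols by gene identifier (54 kept the old one). Intensities were used as log2(value + 16), on which changes at low brightness come out too small. Probe sets under percentile 40 of mean log2 value (an intensity of about 222) were left out, which left 32768 and 27 of the 28 of the members. The brightest probe set by mean represented a gene (14018 tested).

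A single limma fit (version 3.58.1, run in R 4.3.3) with moderated variances and a variance trend covered all 9 arrays, two-sided, with Benjamini-Hochberg adjustment over all tested probe sets and a threshold of 0.05. Probe sets within a gene were compared by two-sided exact permutation tests of 6 mutant against 3 WT arrays. Named outside the members were SFTPC, HSPA5, the 3 largest changes among the passing genes of each list and the 3 genes most correlated with each member. The members, lists and tests were chosen with earlier results of these data known. Alternatives were other pseudocounts, filters and scalings, no variance trend, fewer arrays, array weights, the replicate number as a block, a 2-fold minimum and averaged probe sets.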

Additional observations from a re-analysis of the deposited data

Results flagged for a closer look

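On DNAJC10 probe set 229588_at, on the log2 scale, all 3 LQ arrays lay below the mean of the WT arrays and all 3 Ex4 arrays above it. Neither mutant passed against WT, with differences of -0.36 ± 0.33 in LQ and 0.15 ± 0.33 in Ex4 (limma, adjusted p = 0.48 and 0.80). Their signs changed, to 0.0449 in LQ with quantile normalization and to -0.11 in Ex4 without WT replicate 2. The difference, LQ minus Ex4, was -0.51 ± 0.33 (SE) and did not pass (limma, adjusted p = 1.0), with LQ readings of 551 to 808, Ex4 readings of 910 to 1066 and WT readings of 612 to 1452.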

How the results depend on the processing

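The number of calls depended on the scaling, the variance model and single arrays, and the causes were not tested. For LQ against WT, 2231 probe sets, 5 member probe sets and 2 member genes on their brightest probe set were called. The number of probe sets was 1159 with quantile normalization, 3899 and 8452 with arrays centred on their medians over tested and over all probe sets, 442 with no variance trend, 4035 in fits of the 6 arrays compared, 8580 with array weights and 1464 with a 2-fold minimum. Member probe sets were 12 and 14 with these centrings, 3 without a filter, 1 without the trend, 8 in fits of the 6 arrays compared and 11 when arrays were weighted. Member genes were 1 with quantile normalization, without a filter and with the block, 4 and 5 with the centrings, and 0 without the trend (limma). For Ex4 against WT, 4 probe sets and 0 member probe sets were called; quantile normalization gave 9 probe sets, the centrings 1364 and 5106, fits of the 6 arrays compared 2, and array weights 5287. The centrings gave 5 and 13 member probe sets and 3 and 5 member genes, and array weights 10 and 5. For both mutants against WT, 3818 probe sets, 8 member probe sets and 3 member genes were called; quantile normalization gave 2399 probe sets, centring over all probe sets 9736, 14 and 6, no trend 1520, 4 and 1, array weights 9036, 13 and 5, and a 2-fold minimum 2054 probe sets. LQ against Ex4 had 2 probe sets called and 1 without the trend. Centring over all probe sets was chosen after seeing the data. Higher and lower calls split 1011 to 1220 in LQ, against 675 to 484 with quantile normalization, 3087 to 812 and 7934 to 518 with the centrings and 1181 to 1029 with a filter at percentile 60, 2 to 2 in Ex4, against 6 to 3, 1168 to 196 and 4824 to 282, and 1601 to 2217 in both mutants, against 1400 to 999, 4114 to 1265 and 9039 to 697.

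Leaving out each array in turn gave 8 to 4993 probe sets, 0 to 9 member probe sets and 0 to 3 member genes in LQ, 2 to 4433, 0 to 9 and 0 to 4 in Ex4, and 25 to 7229, 0 to 11 and 0 to 4 in both mutants. Some small log2 changes reversed. In LQ, DNAJC10 229588_at was 0.0449 with quantile normalization and 0.22 centred over all probe sets. SEC63 201916_s_at was -0.0292 with quantile normalization and -0.0031 to 0.35 without single arrays, with the lowest value without WT replicate 2. DNAJC1 222620_s_at was -0.12 with quantile normalization, -0.0368 with array weights and -0.0958 to 0.10 without single arrays, with the lowest value without LQ replicate 3. DNAJC16 212908_at was 0.0505 and 0.39 with the centrings, and DNAJB12 202866_at was 0.29 centred over all probe sets. In Ex4, DNAJC3 235341_at was 0.0616 with quantile normalization, 0.0706 and 0.35 with the centrings and -0.34 to 0.0109 without single arrays, with the highest value without WT replicate 3. DNAJC10 229588_at was -0.11 to 0.50 without single arrays, negative without WT replicate 2. DNAJC16 212908_at was 0.0163, 0.18 and 0.46 with these 3 scalings and -0.0972 to 0.0931 without single arrays, positive without Ex4 replicate 2 or WT replicate 2.

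Whether replicate numbers pair the samples was not settled. Deviations of same-numbered LQ and WT arrays correlated at 0.173, 0.104 and 0.074, above those of differently numbered arrays, at -0.132 to 0.035. Same-numbered Ex4 and WT arrays correlated at -0.071, 0.010 and -0.083, against -0.045 to 0.11 for different numbers. For LQ and Ex4 the values were 0.191, -0.012 and 0.123, against -0.229 to 0.164. With the number as a block, 2215 probe sets, 4 member probe sets and 1 member gene were called in LQ, 4 probe sets and 0 of either in Ex4 with limma, 2 and 0 between the mutants, and 4004, 8 and 3 in both mutants. Of the 19 relations within genes, 0 passed by the exact test, also with pseudocounts of 1 and 64 and without each array in turn. As the smallest p with all 9 arrays is 0.012, a single relation cannot pass after adjustment, and these counts say nothing about stability.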
